A study of Mus musculus with 16 samples.

Results

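The 33 genes described here encode enzymes of cholesterol and fatty acid synthesis and their main regulators. They were picked by symbol from the annotated gene names of the isoform tables, with earlier results of these data known. They are 33 of 23724 genes with at least 1 read of an annotated or gene-matched isoform, and 1380 of the 815498 isoforms listed. The samples were brain tissue of male mice, in 4 groups of 4. Non-transgenic (NT) and R6/2 cortex and NT and R6/2 striatum were sequenced as full-length cDNA by PacBio Iso-seq. The R6/2 line carries a transgene for exon 1 of human huntingtin with an expanded CAG repeat, driven by the human huntingtin promoter and carried beside the intact mouse gene, and the NT mice lack the transgene. The labels give no age for these samples, and the study describes them as part of its 3-month-old, symptomatic cohort. Nothing in the labels says which samples came from the same animal, so the p-values measure only the spread between these samples, which may in part be technical.

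Cholesterol does not pass from the blood into the brain and is made there, mostly by glia in the adult, with oligodendrocytes placing much of it in myelin and astrocytes supplying neurons through lipoproteins. Acetyl-CoA is built up through mevalonate to farnesyl diphosphate, farnesyl diphosphate is joined into squalene, and squalene is closed and trimmed to cholesterol. When sterol in the endoplasmic reticulum is low, SCAP carries the SREBP factors (the products of Srebf1 and Srebf2) to the Golgi for cleavage. The cleaved factors then switch on these genes together with the CCAAT-binding factor NF-Y, while INSIG1 holds the complex back when sterol is plentiful.

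For 26 of the 33 genes a RefSeq transcription start was listed (GRCm38.p6), and the 250 bases before it were read for short motifs on both strands. The CCAAT box lay within that window in 20 of the 26 genes (76.9%), against 37.5% of 27025 genes of the same table. GGGCGG was found in 21 of 26 (80.8%) against 35.4%, and the E-box CACGTG in 5 of 26 (19.2%) against 6.86%. A sterol element of the form TCACNCCAC was found in Hmgcs1 alone (3.85% of the 26, against 1.22% of all genes). For genes with several listed starts, a match at any of them was counted. A match is a description of the sequence, not of a bound site. The windows of 4 genes that recur in the results below are printed here 5′ to 3′ along each gene, with CCAAT (or ATTGG, its reverse complement) and the sterol element in capitals.
Hmgcs1, chr13:119690101-119690350, plus strand: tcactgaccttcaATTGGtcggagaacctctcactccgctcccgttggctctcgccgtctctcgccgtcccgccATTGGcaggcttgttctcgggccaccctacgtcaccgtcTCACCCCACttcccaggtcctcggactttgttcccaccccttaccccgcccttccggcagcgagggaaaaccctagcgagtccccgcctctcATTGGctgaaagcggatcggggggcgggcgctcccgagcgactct
Insig1, chr5:28071162-28071411, plus strand: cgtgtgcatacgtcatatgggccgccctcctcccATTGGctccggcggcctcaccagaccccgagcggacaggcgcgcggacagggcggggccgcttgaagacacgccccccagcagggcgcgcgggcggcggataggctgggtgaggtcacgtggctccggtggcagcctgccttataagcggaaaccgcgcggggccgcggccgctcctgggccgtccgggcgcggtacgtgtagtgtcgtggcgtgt
Msmo1, chr8:64733579-64733828, minus strand: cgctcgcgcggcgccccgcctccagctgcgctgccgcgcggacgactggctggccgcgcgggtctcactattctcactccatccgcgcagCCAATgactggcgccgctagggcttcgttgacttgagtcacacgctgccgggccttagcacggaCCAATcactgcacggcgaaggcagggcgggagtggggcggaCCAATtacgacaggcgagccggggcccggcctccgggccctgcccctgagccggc
Acly, chr11:100528001-100528250, minus strand: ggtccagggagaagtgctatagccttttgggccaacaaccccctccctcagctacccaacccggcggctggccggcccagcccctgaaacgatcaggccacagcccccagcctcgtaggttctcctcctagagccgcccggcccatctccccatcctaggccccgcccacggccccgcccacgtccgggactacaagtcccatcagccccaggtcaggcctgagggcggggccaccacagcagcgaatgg
Hmgcs1 had 3 CCAAT boxes, at 237 to 233, 176 to 172 and 45 to 41 bases before the start, and the sterol element at 137 to 129 bases. Msmo1 also had 3, at 160 to 156, 96 to 92 and 55 to 51 bases, Insig1 had 1 at 216 to 212 bases, and Acly had neither motif in this window. None of these matches overlapped another. The listed start of Msmo1 lies inside the first exon of its main annotated isoform (chr8:64733508-64733792), which held 95.6% of complete Msmo1 reads. Its 3 matches fall within that exon, so they are not upstream of the transcript measured here.

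Between 252885 and 1496196 reads were listed per sample. In the 33 genes these came to between 298 reads (striatum NT 4) and 2718 reads (striatum NT 2), so that a read was worth between 0.811 and 5.09 CPM (reads scaled to a common library size by TMM normalisation and not divided by gene length, since a full-length read stands for a cDNA). Reads per gene over the 16 samples ran from 31 for Scd1 and 90 for Stard4 to 1862 for Scd2 and 2033 for Hmgcs1. Striatum NT 1, NT 2, R6/2 2 and R6/2 3 were each deposited as 2 sets of counts, which were summed here. These 4 samples had a mean isoform length of 2141 to 2225 nt and 0.368% to 0.767% mitochondrial reads, against 1618 to 1885 nt and 1.22% to 2.63% in the 4 other striatal samples and 1851 to 2100 nt and 0.266% to 0.488% in the cortex. The number of sets was balanced over the genotypes and entered the striatal fit as a term. It cannot be told apart from depth and cDNA length. Defining markers of the tissue were present. The summed CPM of 9 striatal projection neuron markers was 10539 to 14453 in NT striatum and 392 to 490 in NT cortex, and that of 6 cortical excitatory neuron markers was 392 to 567 in NT cortex and 163 to 188 in NT striatum. Lamp5 made up most of the latter sum, with means of 357 CPM in NT cortex and 158 CPM in NT striatum. The other 5 cortical markers were each at 0 in some sample. In bulk tissue, fewer cells of a type and less RNA per cell cannot be told apart.

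The transcripts themselves were largely the annotated ones. A median of 86.9% of a gene's reads matched an annotated isoform in full, and in 32 of the 33 genes the most abundant complete isoform was annotated. In 23 genes this isoform made up over 75% of the complete reads. Insig1 was the most uniform, with 96.7% of 544 reads on annotated isoforms and 0.184% incomplete. Other genes were mostly seen as fragments. For Srebf2, encoding the SREBP that favours cholesterol genes, 94.2% of 433 reads were incomplete splice matches (ISM, reads that follow an annotated isoform but lack exons at an end), as were 90.4% of 366 reads of Fasn, the fatty acid synthase, and 86.6% of 194 reads of Dhcr7, the last reductase of one branch of cholesterol synthesis. Dhcr7 had no isoform with 10 complete reads, and the leading complete isoforms of Fasn and Acaca were short annotated ones of 2 exons and 1 exon.

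A few genes had abundant unannotated transcripts. Hmgcs1 encodes the cytosolic HMG-CoA synthase that feeds the mevalonate pathway, and 36.6% of its 2033 reads had an unannotated splice site (NNC). One such isoform, with 11 exons and 2659 nt, held 663 of 1729 complete reads (38.3%), beside 968 reads (56.0%) of the annotated isoform of 10 exons and 3233 nt. Its share of the complete reads was 38.8% ± 5.6 in NT cortex, 37.9% ± 3.35 in R6/2 cortex, 36.2% ± 8.68 in NT striatum and 40.0% ± 5.28 in R6/2 striatum (SD, n = 4 each). The 4 groups overlapped. In Srebf1, encoding the SREBP that favours fatty acid genes, a new combination of annotated splice sites (NIC) with 19 exons led with 47 of 116 complete reads (40.5%), and 35.6% of all 194 reads were NIC. In Mvk, mevalonate kinase, a NIC isoform of 12 exons held 61 of 290 complete reads (21.0%).

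**Figure D1:**
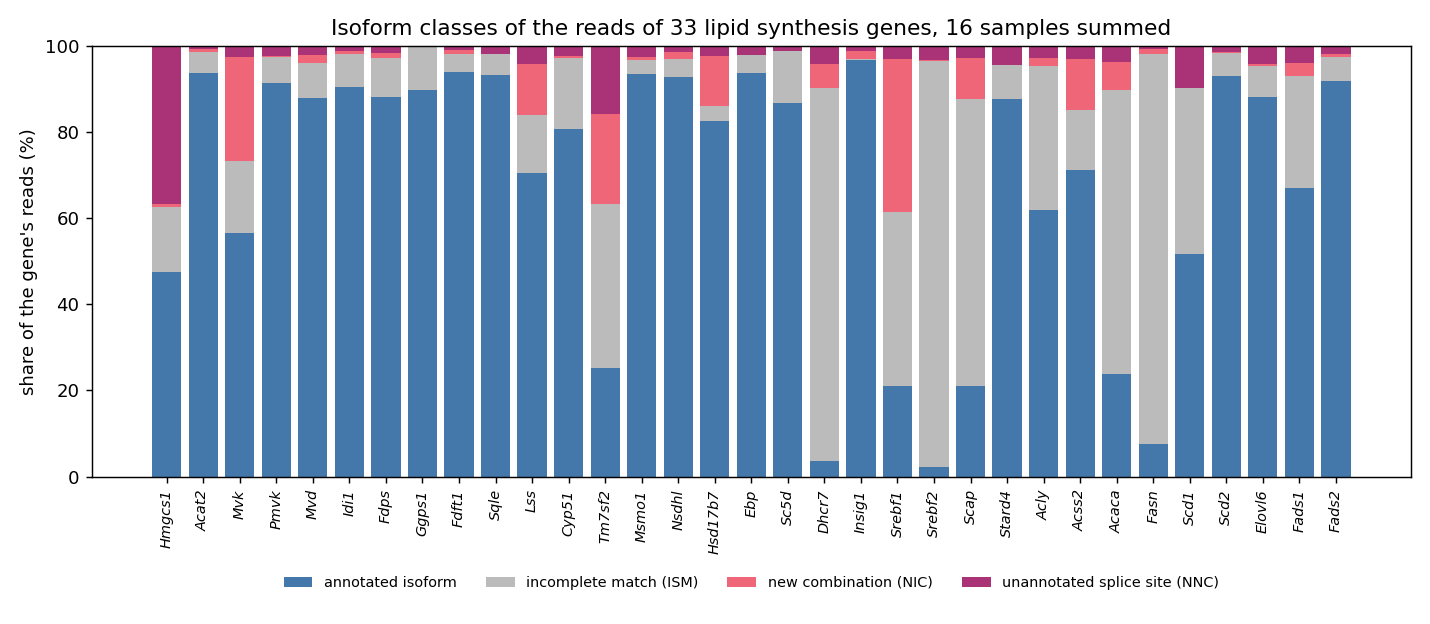
Share of each gene's reads (y axis, %) in 4 isoform classes, for the 33 genes (x axis) in all 16 samples summed. Annotated isoforms fill most bars, the NNC share is largest for Hmgcs1 (36.6%), and ISM reads fill most of Srebf2 (94.2%), Fasn (90.4%) and Dhcr7 (86.6%).

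In the R6/2 striatum, 4 genes of lipid synthesis were lower and none was higher. These were Fdft1 (squalene synthase, the step that commits farnesyl diphosphate to sterols), Msmo1 (methylsterol monooxygenase, which removes methyl groups from lanosterol derivatives), Fads1 (the delta-5 desaturase of polyunsaturated fatty acids) and Acly (ATP citrate lyase, which makes cytosolic acetyl-CoA). They were 4 of 29 genes tested, while 3.82% of the 7694 genes tested were called lower. Counting unadjusted p-values under 0.05, 10 of 29 genes were lower, against 11.6% of all genes, and 23 of 29 fitted differences were below 0, against 50.2%. The median log2 fold change was -0.35 over the 29 genes and -0.0015 over all genes tested. The largest positive difference was that of Elovl6, a fatty acid elongase, at 0.75 ± 0.30 (SE, log2), which did not pass (edgeR adjusted p = 0.199).

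Fdft1 (chr14:63145150-63179578, mm10, minus strand) stood at 141, 175, 117 and 91.2 CPM in NT striatum 1 to 4 and at 59.1, 82.3, 82.8 and 51.5 CPM in R6/2 striatum 1 to 4. Every R6/2 value lay below every NT value. Its log2 fold change was -0.96 ± 0.16 (SE, edgeR quasi-likelihood test, adjusted p = 0.0047).

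Msmo1 (chr8:64718139-64733792, minus strand) was at 178, 188, 187 and 142 CPM in NT and at 77.3, 108, 121 and 81.0 CPM in R6/2. The groups again did not overlap, and the log2 fold change was -0.87 ± 0.16 (adjusted p = 0.0078, edgeR). Of the 29 genes, Fdft1 and Msmo1 were those with no overlap between the genotypes, with R6/2 below, against 4.29% of all genes tested. None of the 29 lay wholly above NT, against 1.79%.

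Fads1 (chr19:10182888-10196877, plus strand) was at 180, 170, 107 and 65.9 CPM in NT and at 66.7, 71.4, 76.4 and 76.1 CPM in R6/2. NT 4 fell just below the R6/2 range and the other 3 NT samples were above it. The log2 fold change was -0.90 ± 0.21 (adjusted p = 0.0259, edgeR). Acly (chr11:100476353-100528000, minus strand) was at 164, 136, 100 and 71.0 CPM in NT and at 53.0, 116, 84.9 and 44.2 CPM in R6/2, with overlapping groups and a log2 fold change of -0.70 ± 0.18 (adjusted p = 0.0454, edgeR). The highest NT values of both genes, and the highest R6/2 values of Acly, were those of samples with 2 sets of counts.

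The next 2 genes did not pass. Hmgcs1 was at 280, 214, 156 and 147 CPM in NT and at 83.4, 171, 143 and 123 CPM in R6/2, with a log2 fold change of -0.64 ± 0.17 (edgeR adjusted p = 0.0526). Insig1 was at 82.9, 68.1, 52.6 and 35.5 CPM in NT and at 34.9, 34.6, 45.7 and 31.9 CPM in R6/2, with a log2 fold change of -0.76 ± 0.21 (edgeR adjusted p = 0.0678). In both, the 2 highest values were NT samples and the lowest value was an R6/2 sample.

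These calls rested on the term for the sets of counts. Without it, 0 genes passed (8 at an unadjusted p under 0.05), and over all genes only 39 of 7694 were called. The log2 fold changes of Fdft1, Msmo1, Fads1 and Acly stayed at -0.95, -0.87, -0.88 and -0.69. Among the 4 samples with 1 set, the log2 fold changes were -0.94, -1.09, -0.38 and -0.87 and none passed. Among the 4 samples with 2 sets they were -0.97, -0.70, -1.27 and -0.60, and Fads1 passed (edgeR adjusted p = 0.0488; 0.0035 to 0.803 over its 19 alternatives). Over all genes, 53 were called with 1 set and 34 with 2 sets. Leaving out 1 sample at a time gave 6 genes without NT 4, 3 without NT 2 or R6/2 4, and 2 without any of the other 5. The calls over all genes moved too, from 145 without R6/2 2 to 392 without NT 4, against 332 in the fit reported. Fdft1 and Msmo1 passed in each of these 8 fits, and Acly in 1 of them, that without NT 4. Over all 19 alternatives, Fdft1 and Msmo1 passed in 15 each, Fads1 in 9 and Acly in 1, and all 4 stayed below 0.

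**Figure D2:**
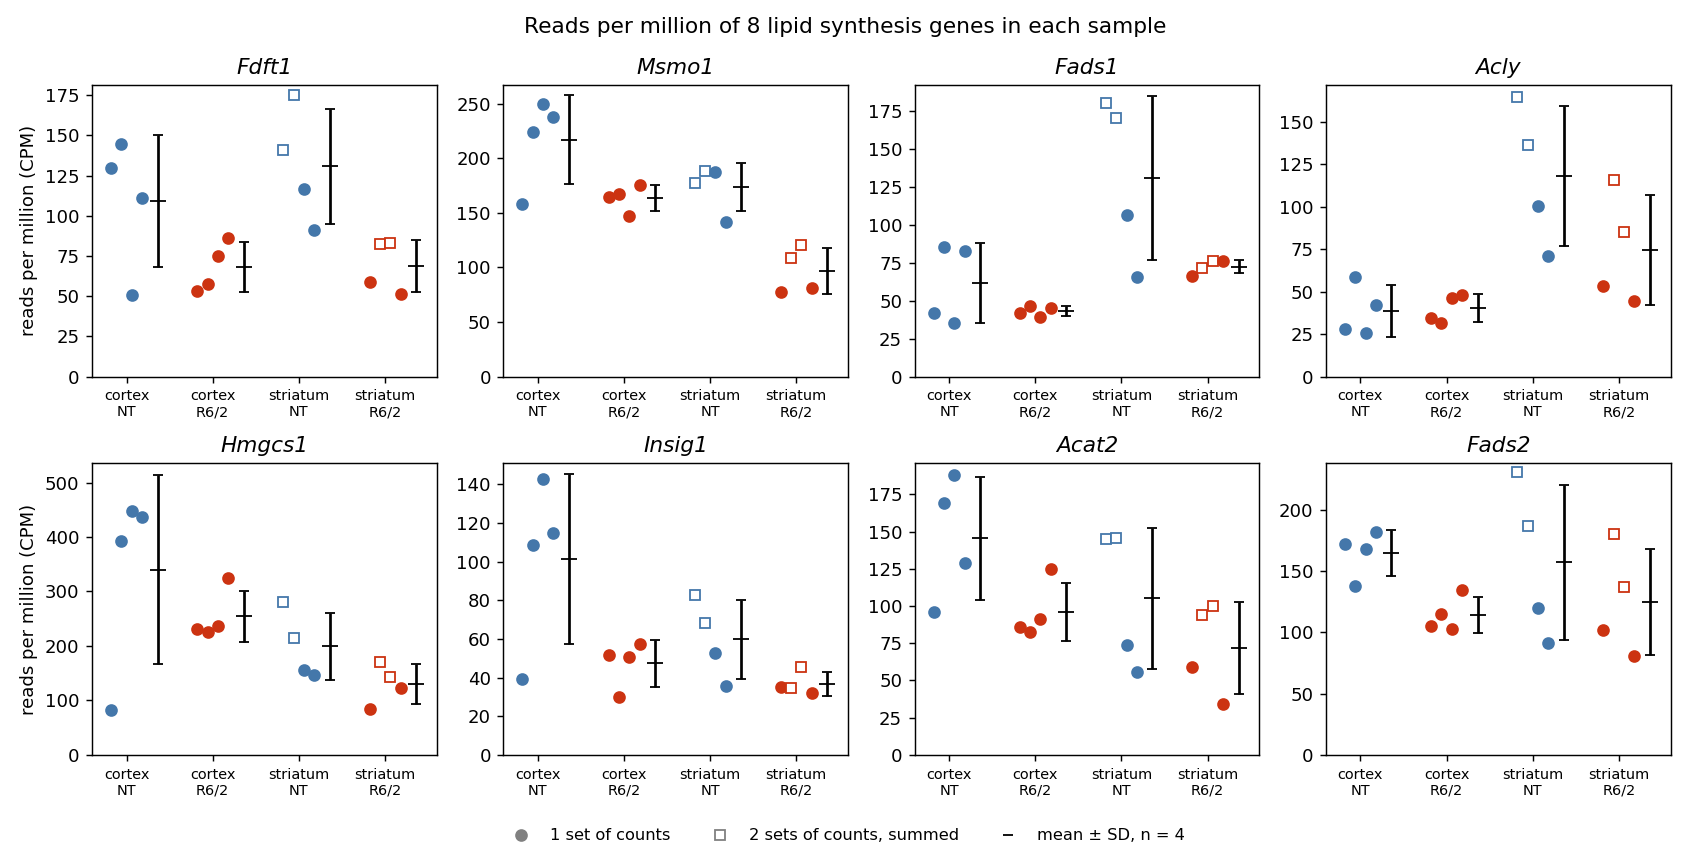
CPM (y axis, linear, from 0) of 8 genes in the 16 samples, by group (x axis), with filled circles for samples with 1 set of counts, open squares for 2 sets, and bars for mean ± SD (n = 4). Fdft1 and Msmo1 do not overlap between NT and R6/2 striatum, and the Hmgcs1 and Insig1 values of cortex NT 1 lie far below those of the other 3 cortex NT samples.

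In the cortex no gene of the set passed. The count was 0 of 24 tested by edgeR, with 10 at an unadjusted p under 0.05 and 1 passing in DESeq2, while 3.23% of 6128 genes tested were called. All 10 were lower in R6/2, against 10.5% of all genes with such a p and a lower value. In 19 of 24 genes the fitted difference was below 0, against 48.2% of all genes, and the median log2 fold change was -0.40 against 0.02. Tm7sf2, Stard4 and Scd1 had too few reads to be tested in either region, Hsd17b7 in striatum, and Ggps1, Lss, Ebp, Dhcr7, Srebf1 and Acaca in cortex.

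Insig1, the sterol-sensing brake on SREBP processing, was nearest to the threshold. It was at 39.5, 108, 142 and 115 CPM in NT cortex 1 to 4 and at 51.6, 29.7, 50.6 and 57.6 CPM in R6/2 cortex 1 to 4, with a log2 fold change of -1.04 ± 0.30 (edgeR adjusted p = 0.0584). NT 1 lay among the R6/2 values and the other 3 NT samples lay above all of them.

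Fdft1 was at 130, 145, 50.9 and 111 CPM in NT and at 53.5, 57.3, 75.1 and 86.5 CPM in R6/2 (log2 fold change -0.73 ± 0.25, edgeR adjusted p = 0.125). NT 3, the cortical sample with the fewest reads, was the lowest of the 8. Fads2, the delta-6 desaturase that acts before Fads1, was at 172, 138, 168 and 182 CPM in NT and at 105, 115, 103 and 134 CPM in R6/2 (log2 fold change -0.52 ± 0.18, edgeR adjusted p = 0.131). It was the 1 gene of the 24 whose cortical groups did not overlap, with R6/2 below NT, against 6.54% of all genes, and none of the 24 lay wholly above, against 3.56%.

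Acss2, the cytosolic acetyl-CoA synthetase, was at 36.7, 65.5, 40.7 and 70.6 CPM in NT and at 30.6, 29.7, 34.7 and 38.4 CPM in R6/2 (log2 fold change -0.73 ± 0.27, edgeR adjusted p = 0.164). Acat2, the cytosolic thiolase of the first step, was at 95.9, 169, 188 and 129 CPM in NT and at 85.9, 82.8, 91.0 and 125 CPM in R6/2 (-0.57 ± 0.22, edgeR adjusted p = 0.182). Fdps, farnesyl diphosphate synthase, was at 183, 194, 209 and 149 CPM in NT and at 143, 140, 116 and 151 CPM in R6/2 (-0.39 ± 0.18, edgeR adjusted p = 0.259). In each of these 3 genes 1 R6/2 sample reached into the NT range.

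Leaving out cortex NT 1 changed the cortical count more than leaving out any other sample. This sample held 1794 CPM over the 33 genes, against 2501 to 2595 CPM in the other 3 NT samples, and its 8-member group of mevalonate and isoprenoid enzymes summed to 581 CPM against 951 to 1150 CPM. Without it, 4 of 25 genes passed, all lower in R6/2, while the calls over all genes also rose, from 198 of 6128 to 300 of 6429 (220 of them lower). By edgeR these were Insig1 (log2 fold change -1.31, adjusted p = 0.0021), Hmgcs1 (-0.73, adjusted p = 0.0192), Acat2 (-0.72, adjusted p = 0.0395) and Cyp51, the lanosterol demethylase (-0.78, adjusted p = 0.0450). Without NT 3, Fdft1 passed instead (-0.90, edgeR adjusted p = 0.0256), and 235 of 6463 genes were called over all.

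**Figure D3:**
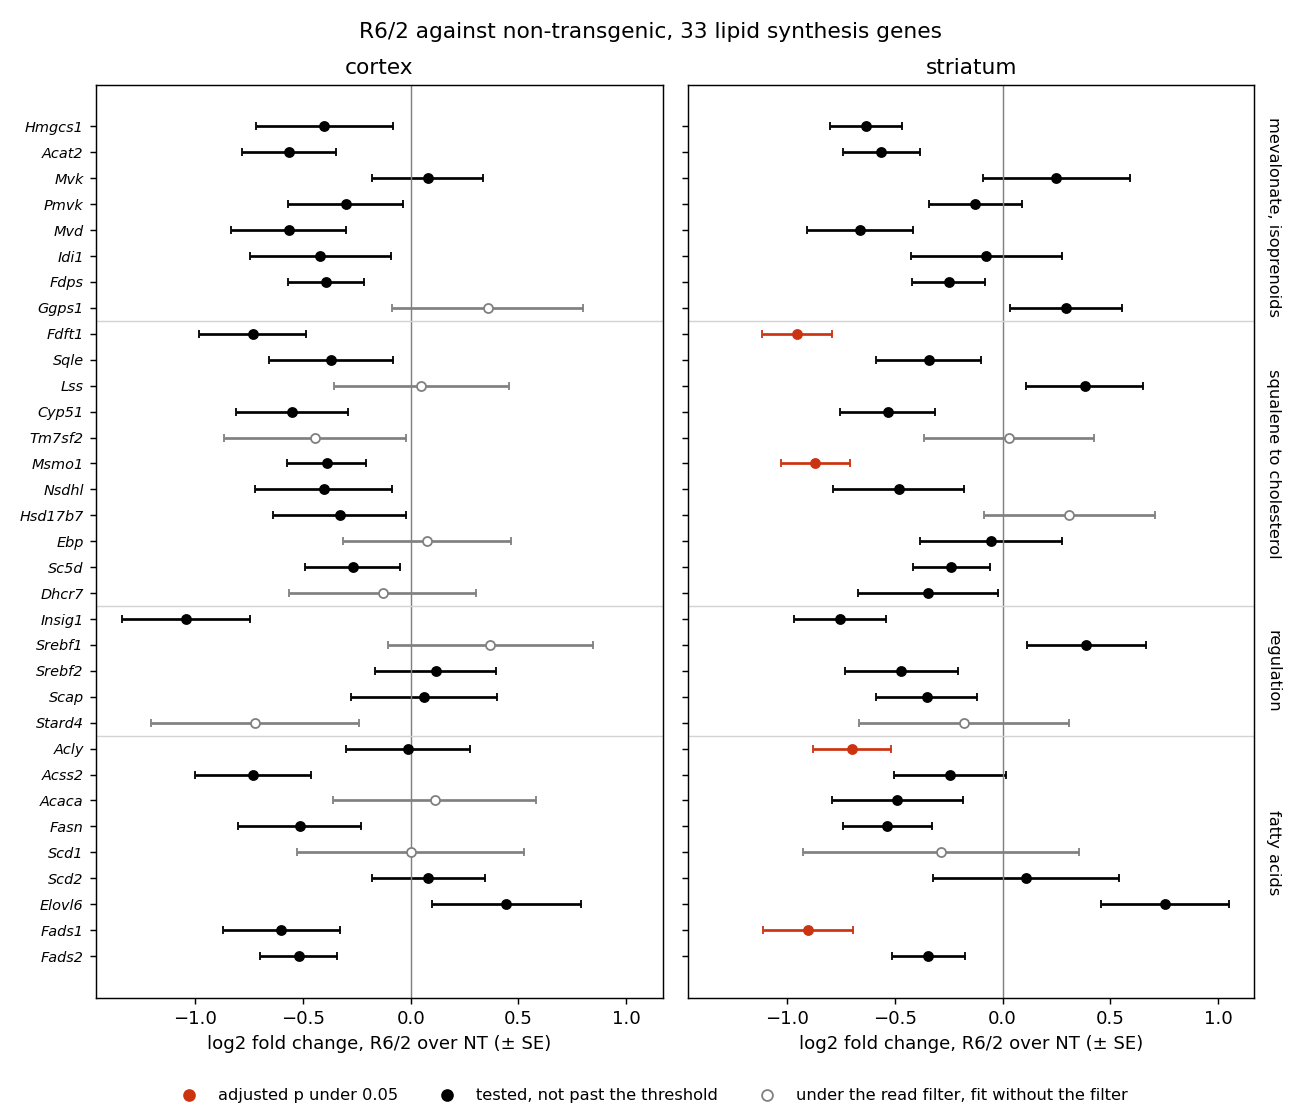
Log2 fold change of R6/2 over NT (x axis, ± SE) for the 33 genes (y axis, by role) in cortex and striatum, with red points for an adjusted p under 0.05, black points for other tested genes and open grey points for genes under the read filter, taken from a fit without the filter. Most points lie left of 0 in both regions (19 of 24 tested in cortex, 23 of 29 in striatum), and the 4 red points are in the striatum.

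By role, the 7 tested enzymes from squalene synthase onwards were all below 0 in the cortex (median log2 fold change -0.39), and 8 of 9 were in the striatum (median -0.35). Of the enzymes of the mevalonate and isoprenoid steps, 6 of 7 in the cortex (median -0.40) and 6 of 8 in the striatum (median -0.19) were below 0. Of the fatty acid genes, 5 of 7 in the cortex (median -0.51) and 6 of 8 in the striatum (median -0.42) were. Scd2, the main brain stearoyl-CoA desaturase, was not among them, at 0.08 ± 0.26 (cortex) and 0.11 ± 0.43 (striatum). Srebf2 and Scap were at 0.12 ± 0.28 and 0.06 ± 0.34 in the cortex, and at -0.47 ± 0.26 and -0.35 ± 0.24 in the striatum. None of these 4 values passed. Summed over the 33 genes, the level was 2349 ± 373 CPM in NT and 1806 ± 213 CPM in R6/2 cortex, and 2076 ± 505 CPM in NT and 1625 ± 310 CPM in R6/2 striatum (SD, n = 4 each).

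Whether the genotype difference itself differed between regions was tested with an interaction term. None of 30 genes passed (0 at an unadjusted p under 0.05, and 0 by DESeq2), against 0.0408% of 7360 genes. The largest differences were those of Acly (-0.66 ± 0.34 on the log2 scale, more negative in the striatum) and Hsd17b7, a sterol 3-ketoreductase (0.66 ± 0.48). The genes called in the striatum are thus not shown to respond differently in the cortex.

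Other genes of the pathway were counted from a list of 27. In the cortex 2 of 15 tested were lower and none was higher, against 2.77% of all genes tested called lower. Apoe, the lipoprotein through which astrocytes export cholesterol, averaged 22640 ± 6990 CPM in NT and 12071 ± 1038 CPM in R6/2 (SD, n = 4 each), with a log2 fold change of -0.88 ± 0.19 (edgeR adjusted p = 0.0099). Thrsp, a nuclear protein of fatty acid synthesis, averaged 51.2 ± 17.5 and 17.2 ± 4.74 CPM (log2 fold change -1.43 ± 0.31, edgeR adjusted p = 0.0130). In the striatum 1 of 17 was lower, a share near the 3.82% of all genes. This was Cyp46a1, the neuronal cholesterol 24-hydroxylase by which the brain clears cholesterol, at 423 ± 173 CPM in NT and 254 ± 116 CPM in R6/2 (log2 fold change -0.76 ± 0.17, edgeR adjusted p = 0.0231).

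Some markers of cells that make or use these lipids also differed with genotype. The summed CPM of 7 astrocyte markers ranged from 2391 to 3698 in NT and from 1395 to 1857 in R6/2 cortex, and from 2007 to 3988 in NT and from 1337 to 1908 in R6/2 striatum. Aldoc was the 1 marker of the 7 called lower in each region and made up most of the sum, with means of 2218 CPM in NT and 973 CPM in R6/2 striatum. Gfap did not pass in the striatum, at 0.23 ± 0.29 on the log2 scale. For 10 oligodendrocyte markers the ranges were 4223 to 8220 and 3986 to 6302 in cortex, and 14668 to 33293 and 14179 to 21125 in striatum, with Cldn11 called lower in both regions and Mal and Mobp in the striatum. The other 7 did not pass in the striatum, among them Cnp at 0.28 ± 0.18, Mag at 0.04 ± 0.15, Ermn at 0.01 ± 0.18 and Opalin at -0.06 ± 0.21. Of the 9 striatal projection neuron markers, 7 were called lower in the R6/2 striatum, where the sum was 1970 to 3418 CPM. None of the astrocyte or oligodendrocyte markers was at 0 in any sample. Their part in the lipid gene differences was not tested.

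The isoform with the smallest usage p among the 33 genes was one of Acly. Its 2 annotated isoforms differ by exon 14 of the longer form, a coding exon of 30 bases (10 codons, chr11:100503160-100503189, minus strand, mm10) that keeps the reading frame, and by 3 bases at the end of the transcript. Acly was singled out by its small p, so its shares are a description. The junction is shown as the spliced transcript, with 30 bases on each side in lower case and the exon in capitals, from GENCODE M21.
Acly with the exon (29 exons): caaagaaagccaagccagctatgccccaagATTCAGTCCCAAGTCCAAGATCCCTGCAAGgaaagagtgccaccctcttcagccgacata
Acly without the exon (28 exons): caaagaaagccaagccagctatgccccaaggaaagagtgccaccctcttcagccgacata
In NT striatum 1 to 4 the exon was present in 39 of 81, 57 of 101, 30 of 40 and 3 of 4 reads of the 2 isoforms. In R6/2 striatum 1 to 4 it was present in 7 of 26, 33 of 78, 25 of 61 and 2 of 9 reads. Every R6/2 sample had a smaller share than every NT sample.

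Summed over samples, the exon was in 57.1% of 226 reads in NT striatum (95% Wilson interval 50.6 to 63.4) and in 38.5% of 174 reads in R6/2 striatum (31.6 to 45.9). In the cortex it was in 16 of 26 reads in NT (61.5%, 42.5 to 77.6) and in 9 of 36 reads in R6/2 (25.0%, 13.8 to 41.1). These intervals cover counting error only, since the cDNA was amplified by PCR and the reads carry no molecular identifiers. The cortical samples had between 1 and 17 such reads each, and their shares did not overlap either, with the lowest NT share at 4 of 9 reads and the highest R6/2 share at 3 of 9. Shares without overlap were found for both Acly isoforms, and for no other of the 15 isoforms of the set that were compared in each region, against 6.31% of 8140 isoforms in cortex and 6.06% of 12436 in striatum. Since these 2 isoforms hold most complete reads of Acly, a lower share of one nearly fixes a higher share of the other. They count as 1 difference in 1 gene, and nothing is read from 2 of 15 against that background.

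The difference did not pass the usage test. In edgeR's diffSpliceDGE fit the isoform with the exon was lower than the other Acly isoforms by a log2 difference of -0.46 in the striatum (edgeR, Simes adjusted p = 0.788) and of -0.87 in the cortex (adjusted p = 1.0). By edgeR's gene-level F test p was 0.0083 in the striatum and 0.0136 in the cortex (adjusted p = 0.208 and 0.306). The size of the difference went with the sets of counts. In samples with 1 set the exon was in 75% of 44 NT reads (60.6 to 85.4) and 25.7% of 35 R6/2 reads (14.2 to 42.1), and in samples with 2 sets in 52.7% of 182 (45.5 to 59.9) and 41.7% of 139 reads (33.9 to 50.0).

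**Figure D4:**
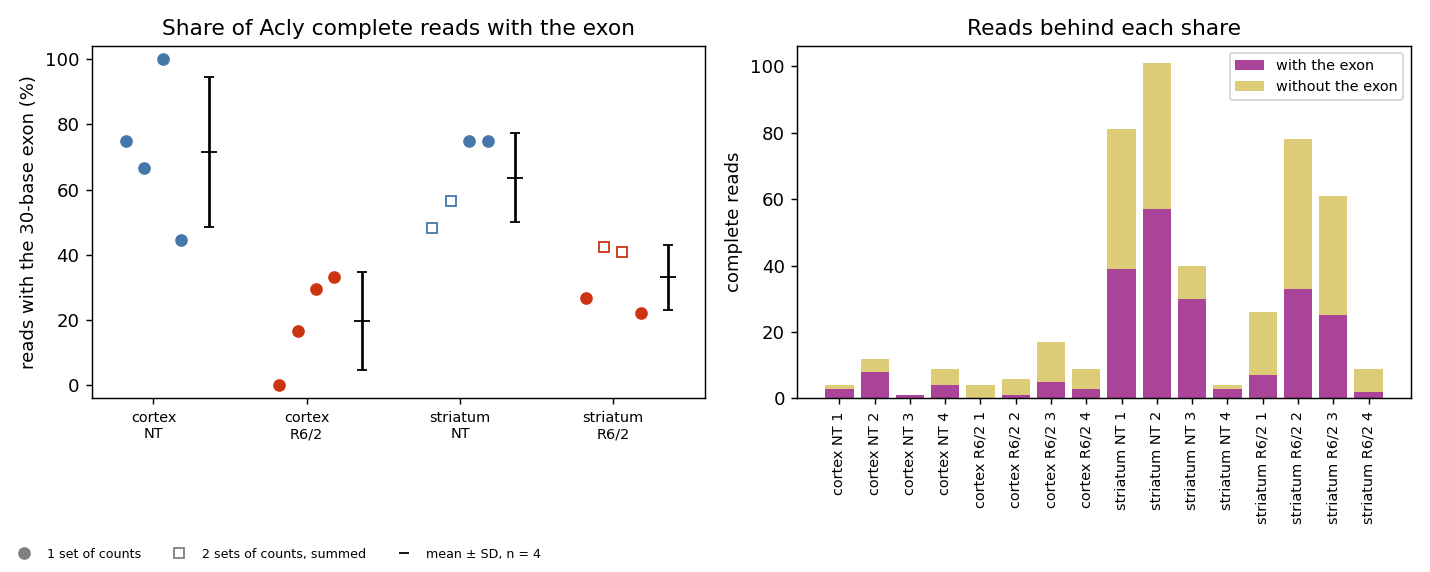
Left, share of Acly reads (y axis, %) that hold the 30-base exon among reads of the 29-exon and 28-exon isoforms, by group, with filled circles for samples with 1 set of counts, open squares for 2 sets, and mean ± SD (n = 4). Right, the number of reads behind each share. R6/2 samples lie below NT samples in both regions, and the cortical shares rest on 1 to 17 reads each.

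No gene of the set passed for isoform usage in any comparison, with 0 at an unadjusted Simes p under 0.05 (edgeR diffSpliceDGE). The counts were 0 of 6 genes tested in cortex (0.359% of 3060 genes called), 0 of 9 in striatum (0.450% of 4443) and 0 of 12 between the regions (1.43% of 5653). By the F test Acly was the 1 gene under 0.05 before adjustment, in cortex and in striatum. After Acly, the usage p was smallest for Hsd17b7 (between regions, edgeR adjusted p = 0.913), then for Acat2 and Mvk (in striatum) and Fdps (between regions), which had adjusted p-values of 1. The Acat2 isoform of 8 exons and 1800 nt held 18.3%, 11.9%, 12.5% and 9.09% of complete reads in NT striatum 1 to 4 and 5.71%, 9.76%, 8.79% and 7.14% in R6/2 striatum 1 to 4. The NIC isoform of Mvk with 12 exons held 10.0%, 17.9% and 6.67% in NT striatum 1 to 3, where NT 4 had no complete Mvk read, and 16.7%, 22.2%, 27.6% and 35.7% in R6/2 striatum. In both genes the genotypes overlapped.

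For Hsd17b7 a NIC isoform of 8 exons held 19 of 160 complete reads (11.9%), 4 of them among the 7 reads of striatum NT 3 (57.1%), and between 0% and 21.4% in each other sample. The Fdps isoform of 1 exon held 11 of 995 complete reads, at most 4.76% in a sample.

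Between the regions, in NT mice, Acly was higher in the striatum in the fit reported and in all 26 alternatives. Fdps was lower in that fit and in fits with 1 set or 2 sets of counts, chosen after seeing the data. Fdps did not pass without striatum NT 3, striatum NT 4, cortex NT 1 or cortex NT 4. Nor did Fdps pass without the read filter, without ISM isoforms, or with a term for replicate number in place of that for sets. In the fit with the term for the sets of counts, 9 of 30 genes were lower in the striatum (17.8% of 7360 genes called lower) and 3 were higher (15.8% called higher), and the median over all genes tested was itself -0.12 on the log2 scale, against -0.52 for the 30 genes. The genes with the largest differences were Hsd17b7 (-1.57 ± 0.43), Idi1, the isomerase of isopentenyl diphosphate (-1.33 ± 0.46) and Hmgcs1 (-1.13 ± 0.36) on the lower side, and Acly (1.05 ± 0.28), Srebf2 (0.97 ± 0.31) and Fads1 (0.75 ± 0.28) on the higher side (SE, log2, edgeR). In R6/2 mice 4 of 30 genes were lower in the striatum, a share near the 14.5% of all genes called lower. These were Hmgcs1, Acat2, Cyp51 and Msmo1. None was higher, against 13% of all genes. These counts too went with the sets of counts.

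In NT cortex Hsd17b7 was at 31.0, 36.1, 25.4 and 24.2 CPM and in NT striatum at 15.8, 7.30, 13.1 and 10.1 CPM, without overlap. Idi1 was at 19.7, 52.0, 50.9 and 48.4 CPM in NT cortex and at 30.3, 37.3, 18.1 and 0 CPM in NT striatum, where 0 reads in NT 4 allow a level of up to 15.2 CPM (3 reads). Acly was at 28.2, 58.7, 25.4 and 42.3 CPM in NT cortex, below every NT striatal value given above.

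Hmgcs1 was at 81.8, 393, 448 and 438 CPM in NT cortex, so that 3 samples lay above all NT striatal values and NT 1 lay below them. Srebf2 was at 50.8, 49.7, 30.5 and 30.2 CPM in NT cortex and at 57.9, 44.6, 59.1 and 101 CPM in NT striatum. Fads1 was at 42.3, 85.8, 35.6 and 82.7 CPM in NT cortex, and its striatal values overlapped that range through NT 4.

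The balance of higher and lower genes went with the sets of counts. Against NT cortex, the 2 NT striatal samples with 1 set gave 1 gene higher and 7 lower, with a median of -0.54 over the 30 genes. Over all 7465 genes of that fit 1116 were higher and 1082 lower, with a median of -0.12. The 2 samples with 2 sets gave 4 higher and 2 lower, with a median of 0.07, and over all 7892 genes of that fit 1040 were higher and 545 lower, with a median of 0.04. The balance of all genes thus shifted in the same direction. These fits share the cortical samples. With 1 and 2 sets, Acly was at 1.14 (edgeR adjusted p = 0.0075) and 1.95 (edgeR adjusted p = 2.9e-05). Fdps was at -0.72 (edgeR adjusted p = 0.0286) and -0.77 (edgeR adjusted p = 0.0091). Hsd17b7 was at -1.23 (edgeR adjusted p = 0.0551) and -1.35 (edgeR adjusted p = 0.0219). Acat2 was at -1.07 and 0.10 and Fads2 at -0.58 and 0.42, so that their direction depended on the samples used. Of the genes with the largest differences, Idi1 was at -1.67 and -0.24, Hmgcs1 at -1.14 and -0.38 and Srebf2 at 0.85 and 0.38, and none of these 3 passed with 2 sets. Of the fatty acid genes, Fasn was at 0.19 and 0.87 and Fads1 at 0.50 and 1.5. Leaving out striatum NT 3 or NT 4 gave 6 genes in place of 12, and leaving out cortex NT 4 gave 5. Over all genes these fits called 2008, 1937 and 2117, in place of 2470.

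In R6/2 mice the 2 striatal samples with 1 set gave 0 genes higher and 4 lower, with a median of -0.44 over the 30 genes, and over all genes 761 were higher and 763 lower. The 2 samples with 2 sets gave 4 higher (Acly, Fads1, Fasn and Srebf1) and 1 lower (Fdps), with a median of 0.03, and over all genes 1033 were higher and 620 lower. No gene passed in both fits. Hmgcs1 was at -1.31 and -0.66, Acat2 at -0.97 and 0.05, Cyp51 at -1.05 and -0.53 and Msmo1 at -1.04 and -0.48 with 1 and 2 sets, and none of these 4 passed with 2 sets.

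**Figure D5:**
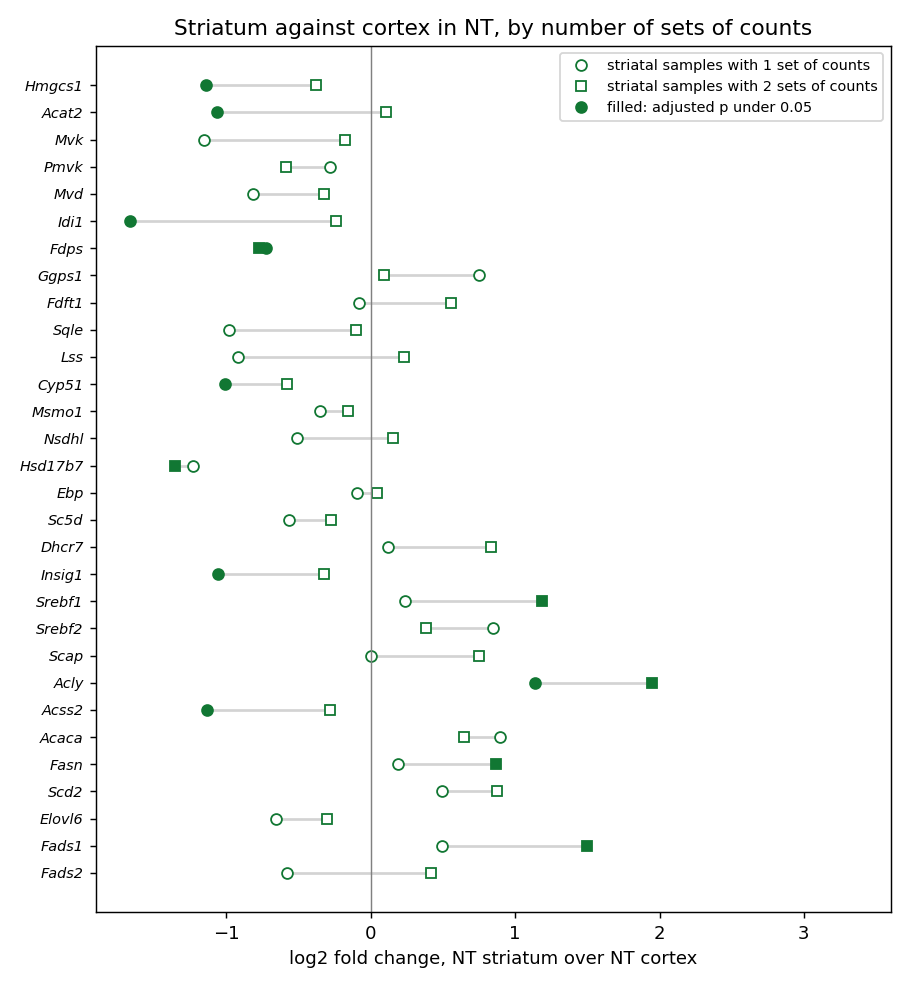
Log2 fold change of NT striatum over NT cortex (x axis) for the 30 tested genes (y axis), from striatal samples with 1 set of counts (circles) and with 2 sets (squares), filled where the adjusted p was under 0.05 and joined by a grey line. Acly and Fdps are filled in both fits, and Acat2 and Fads2 change side.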

How the data were processed

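Full-length cDNA from cortex and striatum of NT and R6/2 mice was sequenced by PacBio Iso-seq (16 samples, 4 per group). Per the study's methods, the authors amplified the cDNA by PCR, made circular consensus reads, aligned them to mm10 with minimap2 (2.17-r941 in the submitters' processing notes), corrected them with TranscriptClean, and deposited for each sample the raw counts of reads per isoform that TALON assigned against Ensembl annotation. Of 20 tables, 4 pairs belong to 1 striatal sample each and were summed. The sources used here do not say whether a pair is 2 libraries or 2 runs. No authors' comparison columns were used.

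Gene counts were sums over annotated, ISM, NIC and NNC isoforms, and genomic, antisense and intergenic reads were left out. Genes were fitted over the whole table with edgeR 4.0.16 (R 4.3.3; TMM, filterByExpr, quasi-likelihood F test, Benjamini-Hochberg adjustment, threshold 0.05), within each region for genotype and over all 16 samples for region and interaction, with a term for the number of sets of counts in the striatum. SE is the log2 fold change over the root of F. Isoform usage was tested with diffSpliceDGE (Simes) on complete isoforms of at least 10 reads. DESeq2 1.42.0 and other alternatives are in the closing section. The fits were also run on simulated counts with the same spread for every gene and no effect of the sets of counts. That simulation therefore does not bear on the term for sets. Intervals and floors (3 reads) cover counting error only.

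The genes and lists were chosen with earlier results of these data known. Values of each sample are given for genes past the threshold for genotype, or the 6 of smallest p in a region, for the 3 largest regional differences in NT in each direction, and for the 5 genes of smallest usage p. Other genes are named as examples. Depth ran from 252885 to 1496196 reads a sample, and low depth limits genes of few reads.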

Additional observations from a re-analysis of the deposited data

Results flagged for a closer look

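Of 71 groups of 4 values looked at, 5 held a sample that stood far from the other 3 by Dixon's test, and chance alone flags about 1 in 20 groups. Cortex NT 1 had 81.8 CPM of Hmgcs1, against 393.1 to 447.8 CPM in the other NT cortex samples, and 19.7 CPM of Idi1, against 48.4 to 52 CPM. Cortex R6/2 4 had 324.2 CPM of Hmgcs1, against 225 to 237 CPM in the other R6/2 cortex samples. Striatum R6/2 1 had 13.6 CPM of Idi1, against 27 to 28.1 CPM in the other R6/2 striatum samples. The 1-exon isoform of Fdps (ENSMUST00000198239) held 3.57% of complete reads in cortex R6/2 4 and was listed at 0 in the other 3 samples of that group.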

How the results depend on the processing

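In the cortex, 0 genes passed in the fit reported, 1 passed under DESeq2, without the read filter, with genomic reads added and with all 16 samples in 1 fit, and between 0 and 4 passed when 1 sample was left out. In the striatum, 4 passed in the fit reported, 0 with only the first set of counts of each sample, 0 without the term for sets, and between 2 and 6 when 1 sample was left out. Fits chosen after seeing the data gave 0 with only the samples of 1 set and 1 with only those of 2 sets. Between the regions in NT, 12 became 6 without ISM isoforms, 3 with the first set only, 4 without the term, 6 with only the striatal samples of 2 sets (chosen after seeing the data) and 5 to 12 when 1 sample was left out. In R6/2, 4 (0 higher and 4 lower) became 2 with the first set only, 1 without the term, 3 to 5 when 1 sample was left out, and 5 with only the striatal samples of 2 sets (chosen after seeing the data), of which 4 were higher and 1 lower. Isoform usage between the regions called 1 of 23 genes, Pmvk, when ISM isoforms were added (edgeR adjusted p = 0.0135). Over all genes that fit called 428 of 8283. The Pmvk call rested on an ISM isoform of 1 exon and 493 nt, an incomplete read, with a log2 difference of 2.25. Isoform usage called 0 genes of the set when 1 sample was left out. The interaction also gave 0 whichever sample was left out. The usage difference of Hsd17b7 between regions was 1.0 on the log2 scale in the fit reported and -0.15 without striatum NT 3, with 1.27 the highest value when 1 sample was left out. The causes of these changes were not tested. Over all genes, the striatal count of 332 became 39 without the term, 20 with the first set only, 53 and 34 with samples of 1 and 2 sets, and the regional count of 2470 in NT became 1103 without the term and 937 with the first set only.

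The labels do not say that a replicate number marks an animal, and in no comparison did every pair of same-numbered samples correlate above 0.1, so the numbers were not taken to pair the samples. The correlations ran from -0.06 to 0.15 between genotypes in the cortex, from -0.54 to 0.56 in the striatum, and from -0.20 to 0.21 between regions in NT. Between regions in R6/2 they were 0.37, 0.20, 0.37 and -0.03 for numbers 1 to 4. Cortical samples 1 to 3 there correlated best with the striatal sample of their own number. In NT the same held for numbers 2 and 3 (0.21 and 0.11). Between genotypes, which cannot share an animal, it held for numbers 1 and 4 in the cortex (0.15 and 0.12) and 4 in the striatum (0.56). Whether the regions share animals cannot be told from these values. With the replicate block, 0 genes passed in the cortex, 2 in the striatum (Fdft1 and Msmo1; 182 of all genes), 1 between regions in NT (310 of all genes) and 3 in R6/2 (1077 of all genes), the last 2 without the term for sets. Without block or term R6/2 gave 1 (840 of all genes).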

Other observations

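Reads that TALON placed in its genomic class, which overlap a gene without following its splicing and were left out of the gene counts, were abundant for the stearoyl-CoA desaturase genes. Scd2 had 1434 such reads beside 1862 reads of its isoforms, and Scd1 had 154 beside 31. Stard4, encoding a sterol carrier, had 129 beside 90, Elovl6 had 120 beside 220, and Ggps1, geranylgeranyl diphosphate synthase, had 102 beside 168. Hmgcs1 had 1 beside 2033 and Pmvk and Ebp had none. Scd2 also varied widely within groups, at 426.4, 59.2, 238.2 and 126.7 CPM in NT striatum 1 to 4, of which the highest and the lowest were both samples with 2 sets of counts.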
